A study of Sus scrofa with 27 samples.

Results

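The 10 genes described here encode proteins that set how long the messengers of inflammation last. They are ZFP36, ZFP36L1, ZFP36L2, ZC3H12A, ZC3H12C, RC3H1, N4BP1, ELAVL1, KHSRP and HNRNPD. They were taken by gene name from a count table of 31908 pig genes, all 10 were found, and none was dropped, since each had at least 88 counts in every library. Lungs of Large-White pigs were taken from non-heart-beating donors, kept cold, and perfused and ventilated outside the body (ex vivo lung perfusion, EVLP) for 12h, and bulk RNA of lung biopsies was sequenced at 0h, 6h and 12h. In the Gold Standard (GS) group, of 5 pigs, part of the perfusate was replaced at intervals. In the Pediatric Dialysis (PD) group, of 4 pigs, the circuit was instead dialysed continuously through a membrane made for children. Both groups were perfused with Steen solution under the Toronto protocol, with methylprednisolone (an anti-inflammatory steroid), cefuroxime (an antibiotic) and heparin (an anticoagulant) in the perfusate, and no group went without perfusion. Up to 6h the PD lungs were those of an earlier study, and the GS lungs were a separate series. The questions were which of these genes changed from 0h within each group, whether the changes differed between PD and GS, and whether the levels did.

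Many messengers of cytokines and early response genes carry AU-rich elements or small stem-loops in their 3′ untranslated region (3′UTR), and proteins that bind there decide whether the messenger is destroyed. The zinc finger proteins of the ZFP36 (tristetraprolin) family recruit deadenylases to AU-rich elements, the Regnase proteins (ZC3H12A and its relatives) cut stem-loops, Roquin (RC3H1) binds stem-loops and recruits deadenylases, and HuR (ELAVL1) protects the messengers it binds. KSRP (KHSRP) promotes decay, AUF1 (HNRNPD) can act in either direction, and N4BP1 is a ribonuclease of the Regnase kind that restrains cytokine production. Several of these regulators are themselves made in response to inflammatory signals, and some of their own messengers are short-lived.

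All 27 libraries came from 9 separate pigs, each giving 1 biopsy at each time, and library totals ran from 26335584 to 67522703 counts in GS and from 14650700 to 21820935 in PD. Within GS, the libraries of pigs 9 and 17 were shallower (at most 41802541 counts) than those of pigs 44, 55 and 77 (at least 51708598). Against the other libraries, the PD pig 2 library at 12h and the PD pig 4 library at 0h had the lowest median correlations, 0.845 and 0.841, where the remaining libraries lay between 0.879 and 0.941. Of the markers fixed for lung epithelium, endothelium, fibroblasts and immune cells, none present in the table was at 0 in any library. Summed alveolar type 2 markers (5 of 6 in the table) ran from 4960 to 14564 CPM (counts scaled to a common library size) in GS and from 15328 to 88368 in PD, without overlap. In bulk tissue, fewer cells of a type and less RNA per cell cannot be told apart. No label says that libraries of both groups were made together, so batch and group cannot be told apart either. RNA was drawn from frozen slices or from preserved tissue by different kits, and which library used which kit is not stated.

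Binding sites of the ZFP36 family were looked for in the messengers of the regulators themselves, because the family is known to act on its own members. The letters searched on the transcribed strand of the RefSeq 3′UTRs (Sscrofa11.1) were the nonamer TTATTTATT, and the heptamer TATTTAT that lies within it. The nonamer was found once in ZFP36, once in ZFP36L1, at 2 overlapping positions in ZC3H12C and once in RC3H1. The heptamer occurred 3 times in ZFP36, 3 in ZFP36L1, 4 in ZC3H12C, 3 in RC3H1 and 1 in N4BP1. Among 3′UTRs within 10 percent of the same length, the heptamer was held by 17.4% for ZFP36, 39.0% for ZFP36L1, 69.9% for ZC3H12C, 73.3% for RC3H1 and 60.7% for N4BP1. The nonamer was not found in the 3′UTRs of ZFP36L2, ZC3H12A, N4BP1, ELAVL1, KHSRP or HNRNPD, which says only that these letters are not in the RefSeq model. Of 3′UTRs chosen by length in the same way, 3.92% held the nonamer for ZFP36, 9.30% for ZFP36L1, 21.7% for ZC3H12C and 21.7% for RC3H1. Across all 18183 genes with a 3′UTR, 7.29% held the nonamer and 28.3% the heptamer. The sites are shown with 10 bases on each side, the nonamer in capitals, 5′ to 3′ on the strand of the gene, beside the first of 5 overlapping sites of TNF, the textbook target of this family.
ZFP36 (chr6:48066039-48066067, plus strand): tatgacgactTTATTTATTctaatagatt
ZFP36L1 (chr7:92490429-92490457, minus strand): aactgttggaTTATTTATTttagaaattt
ZC3H12C (chr9:38206023-38206051, plus strand): ccccccccttTTATTTATTtattttttga
RC3H1 (chr9:116205477-116205505, minus strand): taaaaattttTTATTTATTgatccatagg
TNF (chr7:23702069-23702097, plus strand): cttggcattaTTATTTATTtatttattta
The TNF and ZC3H12C sites run on into a further overlapping nonamer, and those of ZFP36, ZFP36L1 and RC3H1 do not. The RC3H1 site lies in the RefSeq 3′UTR but outside the Ensembl gene model on which reads were counted (chr9:116209094-116292366). These matches describe the letters in the reference and were not measured as bound or active sites in the lung.

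Levels were compared between genes as CPM per kilobase of exon, by their medians over pigs. At 0h in GS, ZFP36 stood highest with 472 CPM per kb, followed by ZFP36L1 (258) and ZFP36L2 (246). HNRNPD (123), KHSRP (58.5), ELAVL1 (32.9) and N4BP1 (20.7) came next. ZC3H12A (7.25), RC3H1 (2.38) and ZC3H12C (1.18) were the lowest of the 10. Lengths were those of RefSeq exons, which for ZC3H12C, RC3H1 and N4BP1 reach beyond the Ensembl models that were counted, so the values per kb of these genes may be too low. For ZFP36, ZFP36L2 and ELAVL1 the counted Ensembl models reach beyond the RefSeq genes, so the values per kb of these genes may be too high. How far this moved the order of the genes was not tested. At 0h in PD, the order began with ZFP36L2 (212 CPM per kb), ZFP36 (109), ZFP36L1 (95.8) and HNRNPD (95.2), and KHSRP stood at 9.39. By 12h, ZC3H12A was at 33.4 CPM per kb in GS and 20.7 in PD, and ZC3H12C at 5.05 and 7.19.

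**Figure D1:**
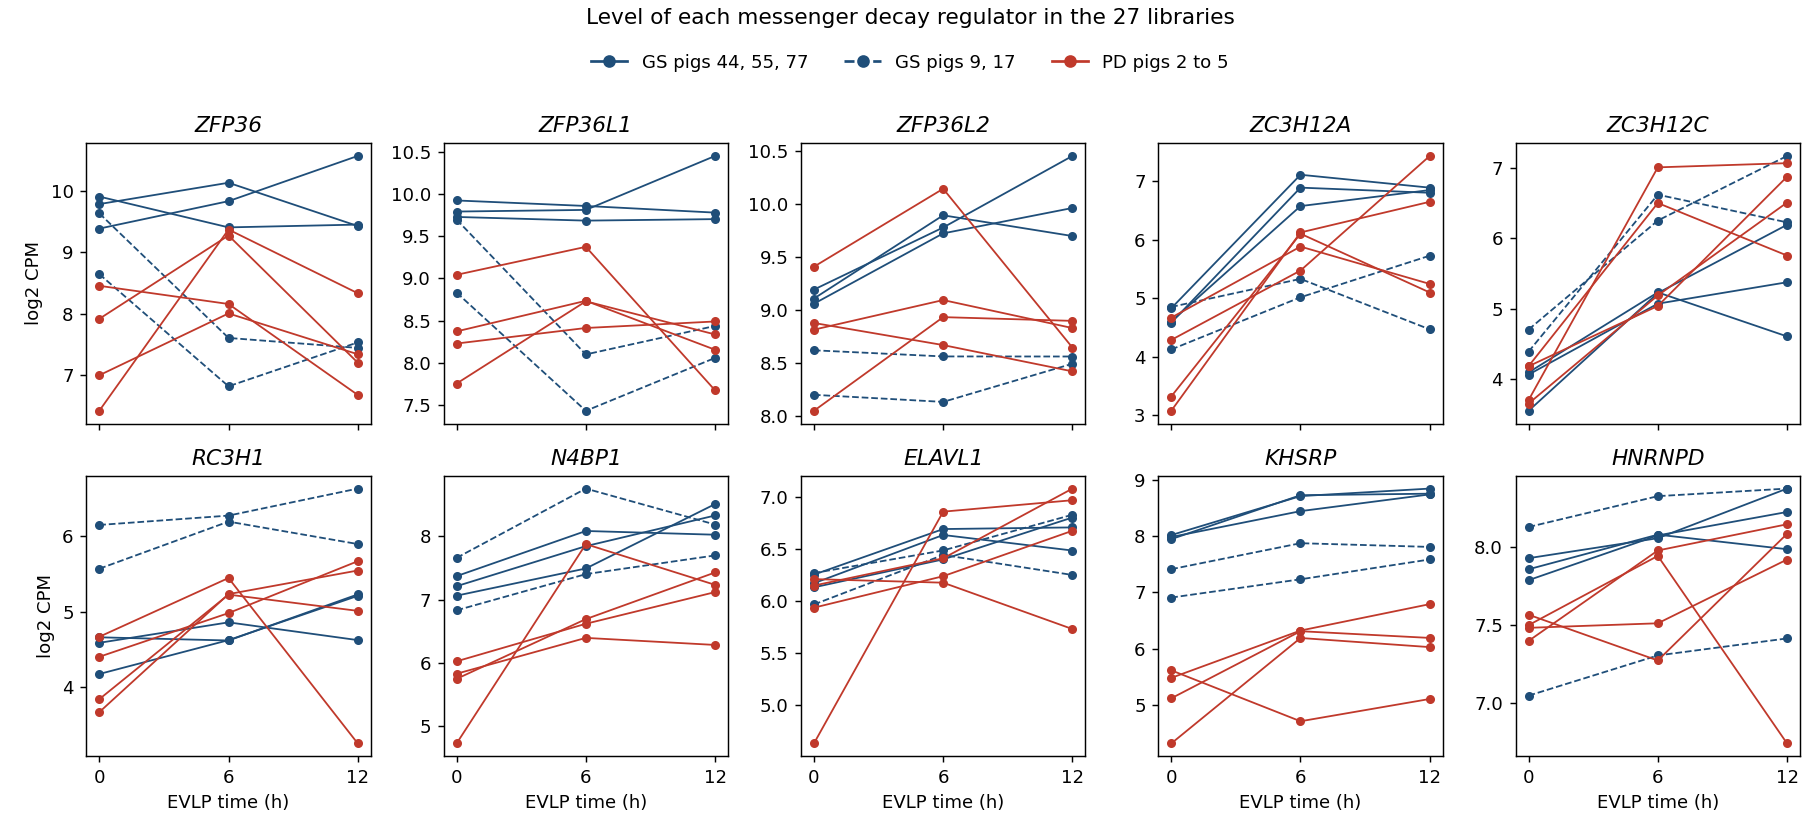
Level of each of the 10 genes in every library, as log2 CPM against EVLP time, with 1 connected line of points per pig. Colour gives the group, and the lines of GS pigs 9 and 17 are dashed. By mean log2 CPM at 0h, ZC3H12A and ZC3H12C are the lowest of the 10 genes in both groups. The KHSRP points of PD lie below those of GS at all 3 times.

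Against 0h, the Regnase genes ZC3H12A and ZC3H12C were the members called in GS at 6h and at 12h and in PD at 12h, all higher. Calls rest on edgeR's quasi-likelihood test over all genes, with a Benjamini-Hochberg adjusted p under 0.05 and at least a 2-fold change. In GS, 2 of the 10 members were called at 6h, where 11.1% of the 18594 genes tested were called in either direction and 5.5% as higher. At 12h the same count of 2 stood against 15.7% in either direction and 6.99% as higher. By the adjusted p alone, with no fold threshold, 5 members passed in GS at 6h and 8 at 12h, all higher, beside 28.5% and 38.4% of all genes in either direction. In PD, no member was called at 6h, where 0.142% of the 15545 genes tested were called, 4 members had an unadjusted p under 0.05 in edgeR (9.41% of all genes), and DESeq2 called 2, ZC3H12A and ZC3H12C, beside 2.75% of all genes in DESeq2. At 12h in PD, 2 members were called, against 5.98% of all genes in either direction and 3.22% as higher. The median log2 fold change over the 10 members was 0.36 at 6h and 0.51 at 12h for GS, and 0.88 and 0.81 for PD, beside medians over all genes between −0.08 and −0.02.

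ZC3H12A (Regnase-1, ENSSSCG00000037815, chr6:93541334-93551195, plus strand of Sscrofa11.1, 3349 bp of exon) encodes the ribonuclease that cleaves stem-loops in messengers such as that of IL6. In GS, for pigs 9, 17, 44, 55 and 77 in that order, its level at 0h was 28.9, 17.4, 23.9, 24.3 and 28.4 CPM. At 6h it was 40.3, 32.4, 119, 95.5 and 138 CPM, and at 12h 22.1, 53.0, 112, 115 and 119 CPM. The 0h values of the 5 pigs lay close together and below all 6h values, while at 12h pig 9 was under its own 0h value and the other pigs were above all 0h values. The fitted log2 fold change was 1.52 (SE 0.32, adjusted p = 0.00474) at 6h, a 2.86-fold rise, and 1.51 (SE 0.32, adjusted p = 0.00336) at 12h. The shallower pigs 9 and 17 moved less than the deeper pigs, with 1.52 over all 5 pigs becoming 0.65 (adjusted p = 0.350) in pigs 9 and 17 alone and 2.20 (adjusted p = 2.8e-05) in pigs 44, 55 and 77 alone. At 12h these values were 0.66 (adjusted p = 0.346) and 2.19 (adjusted p = 2.1e-05).

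In PD, for pigs 2, 3, 4 and 5 in that order, ZC3H12A stood at 19.5, 9.96, 25.4 and 8.39 CPM at 0h. The levels were 44.5, 68.8, 59.1 and 69.8 CPM at 6h and 173, 34.3, 37.9 and 100.4 CPM at 12h. All 4 pigs were higher at both times than at 0h, and the 12h value of pig 2 was the highest of the 27 libraries. That library had 1.65% mitochondrial counts and 18979 genes detected, where the other PD libraries had 4.97 to 11.6% and 20298 to 22291. Summed neutrophil markers in pig 2 stood at 739 CPM at 0h and 1538 CPM at 12h, whereas pigs 3, 4 and 5 had 630 to 1255 CPM at 0h and 264 to 545 CPM at 12h. Summed alveolar type 2 markers were likewise higher at 12h than at 0h in pig 2, at 88368 and 38562 CPM, and lower in each of the other PD pigs. The part of these shifts in the PD changes was not tested. The log2 fold change of ZC3H12A in PD was 2.06 (SE 0.57, adjusted p = 0.236) at 6h, which was not called, and 2.34 (SE 0.59, adjusted p = 0.0414) at 12h, which was called. The 12h call was lost without PD pig 3 or 5, where 0% of all genes were called. Without PD pig 3 the value was 2.48 (adjusted p = 0.209) and without PD pig 5 1.94 (adjusted p = 0.340). Without the PD pig 2 library at 12h it was 1.77 (adjusted p = 0.0228), and the 6h change was then 1.95 (adjusted p = 0.0437).

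ZC3H12C (Regnase-3, ENSSSCG00000015014, chr9:38137966-38207024, plus strand, 14479 bp of exon), a membrane-bound relative of Regnase-1 found in macrophages, had a GS level at 0h of 20.9, 26.0, 16.7, 11.7 and 17.1 CPM. At 6h it was 98.2, 76.2, 33.6, 37.3 and 37.5 CPM and at 12h 74.8, 144, 41.5, 73.1 and 24.3 CPM. All 5 pigs were higher than their own 0h value at both times. Here pigs 9 and 17 had the highest 6h values, where for ZC3H12A they had the lowest. The 0h and 6h groups did not overlap, and at 12h the value of pig 77 was below the 0h value of pig 17. In the GS fit ZC3H12C changed by 1.48 (SE 0.27, adjusted p = 0.00224) at 6h on the log2 scale and 1.75 (SE 0.28, adjusted p = 0.000593) at 12h, folds of 2.80 and 3.36. The change was called in each GS subset, at 1.93 (adjusted p = 0.0281) in pigs 9 and 17 and 1.24 (adjusted p = 0.0194) in pigs 44, 55 and 77 at 6h.

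In PD, ZC3H12C stood at 18.1, 18.1, 13.0 and 12.5 CPM at 0h and 90.5, 32.8, 129 and 36.4 CPM at 6h. At 12h it was 54.0, 117, 134 and 90.9 CPM. Neither later time overlapped 0h, and all 4 pigs were higher at both. For PD the fit gave 2.08 (SE 0.47, adjusted p = 0.123) at 6h and 2.65 (SE 0.47, adjusted p = 0.0179) at 12h, the latter a 6.28-fold rise and the largest among the 10 members in any within-group comparison with 0h. Without PD pig 3 it became 2.62 (adjusted p = 0.171), without PD pig 5 2.56 (adjusted p = 0.254), and without the PD pig 2 library at 12h 2.95 (adjusted p = 0.00212).

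**Figure D2:**
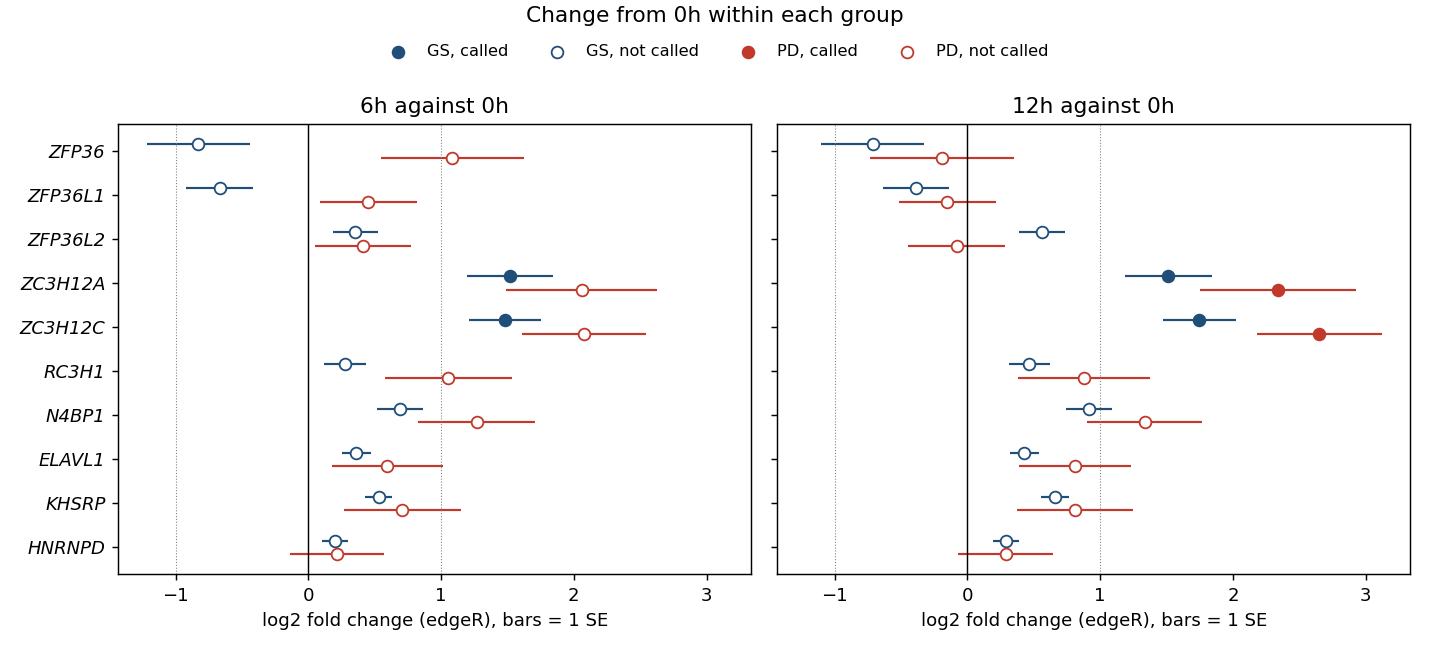
Fitted log2 fold change from 0h of each member at 6h and 12h in GS and PD, with bars of 1 SE on either side and filled points for called changes. ZC3H12A and ZC3H12C are called in GS at 6h and 12h and in PD at 12h, and the PD bars are wider than the GS bars.

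None of the 3 genes of the ZFP36 family was called in either group at either time, and their values differed widely between pigs. ZFP36 (tristetraprolin, ENSSSCG00000028056, chr6:48052137-48066257, plus strand) recruits deadenylases to messengers such as that of TNF. Its Ensembl model overlaps that of PAF1 on the opposite strand, and the strand setting of the counting is not stated. Summed over the 27 libraries, PAF1 had 26.8% of the counts of ZFP36, and how many reads of either gene were counted for the other is not known. In GS, ZFP36 stood at 797, 400.4, 964, 885 and 670.4 CPM at 0h. At 6h it was 194, 112, 679.7, 1127 and 915 CPM, and at 12h 174, 185, 702, 690.2 and 1527 CPM. In pigs 9 and 17 it was lower than at 0h at both times, and in pigs 44, 55 and 77 the changes went in both directions, so the groups overlapped. The log2 fold change was −0.83 (SE 0.39, adjusted p = 0.124) at 6h and −0.71 (SE 0.39, adjusted p = 0.160) at 12h. Within pigs 9 and 17 it was −1.94 (adjusted p = 0.0244) at 6h and −1.66 (adjusted p = 0.0217) at 12h, while within pigs 44, 55 and 77 it was 0.08 (adjusted p = 0.855) and 0.14 (adjusted p = 0.739). Without GS pig 77 the 12h value was −1.14 (adjusted p = 0.0282).

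In PD, ZFP36 was 351, 241, 127 and 85.1 CPM at 0h, 285, 620.0, 257 and 663 CPM at 6h and 102, 147, 162 and 322 CPM at 12h. At 6h pigs 3, 4 and 5 were higher than their own 0h value and pig 2 was lower, and at 12h the pigs were split evenly. Summed endothelial markers went the same way at 6h, from 1713 to 1392 CPM in pig 2. In pigs 3, 4 and 5 they went from 1678 to 2754, from 1202 to 1906 and from 1635 to 2472 CPM. At 12h these sums were above 0h in every PD pig, and their part in the ZFP36 changes was not tested. The log2 fold change was 1.08 (SE 0.54, adjusted p = 0.562) at 6h and −0.19 (SE 0.54, adjusted p = 0.863) at 12h, and between 6h and 12h it was −1.27 (SE 0.52, adjusted p = 0.461).

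ZFP36L1 (ENSSSCG00000028304, chr7:92490011-92495574, minus strand), which destabilises AU-rich messengers as ZFP36 does, followed the same split in GS. At 0h it stood at 831, 456, 849, 972 and 887 CPM, at 6h at 274, 172, 824, 929 and 899.5 CPM and at 12h at 346, 266, 834, 879.7 and 1402 CPM. Pigs 9 and 17 stood far below the other pigs at 6h and 12h, and the log2 fold change was −0.67 (SE 0.25, adjusted p = 0.0603) at 6h and −0.39 (SE 0.25, adjusted p = 0.229) at 12h. Within pigs 9 and 17 it was −1.50 (adjusted p = 0.0186) at 6h, and within pigs 44, 55 and 77 −0.02 (adjusted p = 0.924). Summed markers of fibroblasts and smooth muscle (6 of 6 in the table, none at 0) were also lower at 6h in pigs 9 and 17, at 1733 and 1247 CPM, than in the other GS pigs, at 3607 to 5476 CPM, as were those of monocytes and macrophages (2012 and 1832 CPM, where the others had 3015 to 3660), endothelium (1879 and 1413, where the others had 2430 to 3089) and lymphocytes (168 and 144, where the others had 211 to 282). At 12h the sums for fibroblasts and smooth muscle, endothelium and lymphocytes were again lower in pigs 9 and 17 than in the other GS pigs. Those of monocytes and macrophages stood at 3526 CPM in pig 9, above all other GS pigs, and at 2140 CPM in pig 17. Pigs 44, 55 and 77 had 2232 to 3173 CPM. The part of these markers in the split was not tested. In PD, ZFP36L1 was 527, 331, 299.7 and 216 CPM at 0h, 664, 426, 341 and 424 CPM at 6h and 204, 285, 359 and 323 CPM at 12h. All 4 PD pigs were higher at 6h than at 0h, with a log2 fold change of 0.45 (SE 0.36, adjusted p = 0.671), and at 12h it was −0.15 (SE 0.37, adjusted p = 0.839). Over the 27 libraries, with each pig's mean subtracted, ZFP36 and ZFP36L1 had a Pearson r of 0.871, a description across libraries that share pigs and depth.

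ZFP36L2 (ENSSSCG00000038549, chr3:97200406-97204700, plus strand), the third member of the family, was higher at 6h and 12h in the deeper GS pigs. Its GS levels were 393, 294, 533, 551 and 584 CPM at 0h, 378, 281, 843, 949 and 876 CPM at 6h and 377, 360.1, 995, 829 and 1398 CPM at 12h. Pig 9 was slightly lower at both times and pig 17 at 6h. The log2 fold change was 0.35 (SE 0.17, adjusted p = 0.138) at 6h and 0.56 (SE 0.17, adjusted p = 0.0222) at 12h, the latter past the adjusted p threshold and under the fold threshold. In PD the levels were 678, 449.7, 469.9 and 265 CPM at 0h, 1129, 546, 407 and 488 CPM at 6h and 400.0, 454, 343 and 476 CPM at 12h, and the times overlapped. The PD log2 fold changes were 0.41 (SE 0.36, adjusted p = 0.697) and −0.08 (SE 0.36, adjusted p = 0.916).

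**Figure D3:**
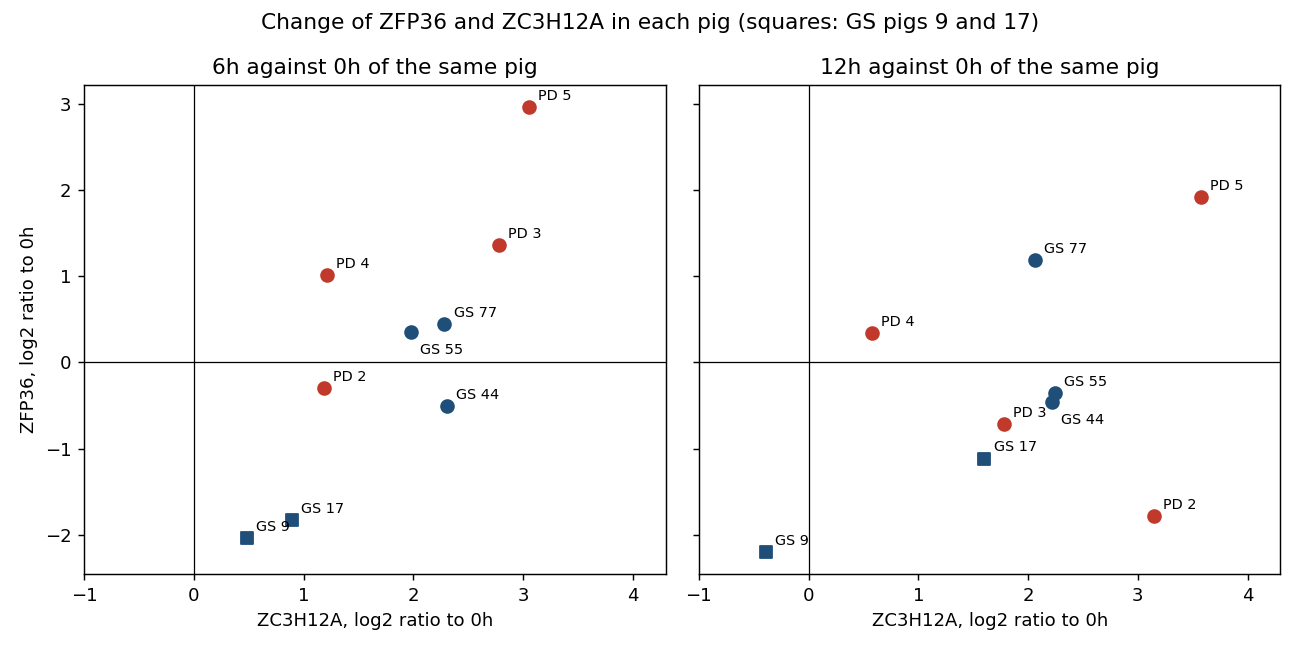
Change of ZFP36 against change of ZC3H12A from the pig's own 0h library, as log2 ratios of CPM. Each panel, 6h and 12h, has 1 labelled point per pig, coloured by group (GS or PD), with squares for GS pigs 9 and 17. The ZFP36 ratios of GS pigs 9 and 17 lie below 0 at 6h and 12h. For ZC3H12A every ratio lies above 0 at 6h, and at 12h only that of GS pig 9 lies below 0.

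N4BP1 (ENSSSCG00000002841, chr6:36122035-36174536, plus strand, 7172 bp of exon), the Regnase-like ribonuclease cut by caspase-8, was higher in every pig at both times. In GS it was 202, 114, 148, 134 and 166 CPM at 0h, 432, 169, 230.1, 180.2 and 272 CPM at 6h and 291, 208, 322, 365 and 261 CPM at 12h. At 12h all 5 values were above all 0h values. In GS the log2 fold change was 0.69 (SE 0.17, adjusted p = 0.0106) at 6h and 0.91 (SE 0.17, adjusted p = 0.00167) at 12h, past the adjusted p threshold and under the 2-fold threshold, and without GS pig 9 it reached 1.05 (adjusted p = 0.000762) at 12h. In PD it was 56.9, 65.2, 26.5 and 53.8 CPM at 0h, 84.3, 98.4, 235 and 104 CPM at 6h and 78.0, 139, 151 and 173 CPM at 12h. Neither later time overlapped 0h, and pig 4, whose 0h library stood apart, moved most. The PD log2 fold change was 1.27 (SE 0.44, adjusted p = 0.386) at 6h and 1.34 (SE 0.43, adjusted p = 0.0874) at 12h, neither of them called. Without the PD pig 2 library at 12h the 12h value was 1.51 (adjusted p = 0.0224), without the replicate block 1.42 (adjusted p = 0.0382) and in DESeq2 1.38 (adjusted p = 0.0165).

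RC3H1 (Roquin-1, ENSSSCG00000015498, chr9:116209094-116292366, minus strand, 10616 bp of exon) also destroys stem-loop messengers, and shares targets with Regnase-1. In GS it was 47.5, 71.1, 25.3, 18.0 and 24.0 CPM at 0h, 73.3, 77.5, 24.6, 24.6 and 29.0 CPM at 6h and 59.6, 99.3, 37.5, 37.0 and 24.6 CPM at 12h. Pigs 9 and 17 stood above the other GS pigs at every time, and the times overlapped. The GS log2 fold change was 0.28 (SE 0.16, adjusted p = 0.200) at 6h and 0.47 (SE 0.16, adjusted p = 0.0311) at 12h. In PD it was 25.4, 21.1, 12.7 and 14.3 CPM at 0h, 43.6, 31.6, 37.6 and 37.5 CPM at 6h and 9.50, 50.9, 46.8 and 32.2 CPM at 12h. At 6h all 4 PD values were above all 0h values, and at 12h pig 2 was the lowest of all PD libraries. The PD log2 fold change was 1.05 (SE 0.48, adjusted p = 0.530) at 6h and 0.88 (SE 0.50, adjusted p = 0.303) at 12h, the latter becoming 1.37 (adjusted p = 0.0109) without the pig 2 library at 12h.

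ELAVL1 (HuR, ENSSSCG00000013592, chr2:71207124-71248916, plus strand), which stabilises the messengers it binds, was higher in every GS pig at both times, by less than 2-fold. Its GS levels were 62.5, 77.05, 76.2, 70.1 and 72.0 CPM at 0h, 86.9, 89.6, 103, 84.4 and 99.3 CPM at 6h and 76.1, 114, 104, 112 and 89.5 CPM at 12h. At 6h all 5 values were above all 0h values. ELAVL1 had a log2 fold change of 0.36 (SE 0.11, adjusted p = 0.0258) at 6h and 0.43 (SE 0.11, adjusted p = 0.00844) at 12h, past the adjusted p threshold and under the fold threshold. In PD it was 74.0, 70.9, 24.8 and 61.2 CPM at 0h, 72.3, 85.0, 116 and 75.5 CPM at 6h and 53.1, 135, 125 and 102 CPM at 12h. The lowest PD values were those of pig 4 at 0h and pig 2 at 12h, the libraries that correlated least with the others. The PD log2 fold change was 0.60 (SE 0.42, adjusted p = 0.648) at 6h and 0.81 (SE 0.42, adjusted p = 0.268) at 12h, and 1.10 (adjusted p = 0.0490) at 12h without the pig 2 library.

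KHSRP (KSRP, ENSSSCG00000013538, chr2:72656951-72668964, plus strand), which promotes decay of AU-rich messengers and also helps to process microRNAs, was higher in every GS pig at both times. Its GS levels were 170.2, 120.0, 259, 253 and 247 CPM at 0h, 235, 150.3, 419, 348 and 424 CPM at 6h and 224, 192, 460.2, 428 and 432 CPM at 12h. The pigs kept wide distances from each other, with pigs 44, 55 and 77 above pigs 9 and 17 at every time. KHSRP had a log2 fold change of 0.53 (SE 0.10, adjusted p = 0.00311) at 6h and 0.66 (SE 0.10, adjusted p = 0.000576) at 12h, past the adjusted p threshold and under the fold threshold. In PD it was 48.9, 44.5, 19.8 and 34.6 CPM at 0h, 26.1, 79.9, 72.9 and 79.2 CPM at 6h and 34.3, 111, 65.1 and 72.9 CPM at 12h. Pig 2 was lower than its own 0h value at both times and the other 3 pigs were higher. The PD log2 fold change was 0.71 (SE 0.44, adjusted p = 0.627) at 6h and 0.81 (SE 0.44, adjusted p = 0.283) at 12h. Without PD pig 2 the 12h value was 1.34 (adjusted p = 0.0160).

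HNRNPD (AUF1, ENSSSCG00000009249, chr8:135844487-135862633, plus strand) had the smallest fitted changes of the 7 members outside the ZFP36 family. In GS it was 279, 132, 221, 231 and 243 CPM at 0h, 320.1, 158, 269, 269.9 and 266 CPM at 6h and 331, 170.4, 298, 253 and 331 CPM at 12h, with pig 17 lowest at each time. HNRNPD had a log2 fold change of 0.20 (SE 0.10, adjusted p = 0.132) at 6h and 0.29 (SE 0.10, adjusted p = 0.0311) at 12h, with all 5 pigs higher at both times. In PD it was 181, 179, 168 and 189 CPM at 0h, 246, 182, 252 and 155 CPM at 6h and 107, 242, 283 and 271 CPM at 12h. The PD times overlapped, and the log2 fold changes were 0.22 (SE 0.35, adjusted p = 0.828) and 0.29 (SE 0.36, adjusted p = 0.667).

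Between 6h and 12h, no member was called in GS or PD in edgeR, where 0% of all genes were called. DESeq2 called no member either, beside 0.0108% of the GS genes tested and 1.51% of the PD genes tested. At an unadjusted p under 0.05, edgeR had 0 members in GS (4.74% of all genes) and 1 in PD (10% of all genes), which was ZFP36. Where the fold changes from 0h were compared between the groups, again no member was called at 6h or 12h in edgeR, where 0% of all genes were called. DESeq2 called no member, beside 0.0391% of all genes at 6h and 0.0839% at 12h. At an unadjusted p under 0.05, edgeR had 2 members at 6h, beside 5.85% of all genes, and 0 at 12h, beside 5.98%. These were ZFP36, whose change at 6h was higher in PD by 1.90 (SE 0.69, adjusted p = 0.783) on the log2 scale, and ZFP36L1, by 1.11 (SE 0.44, adjusted p = 0.783). Endothelial markers had a median difference of 0.89 in the same direction at 6h, with none called. The medians were −0.40 for neutrophil markers and −0.33 for monocyte and macrophage markers. The part of such shifts in these differences was not tested.

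Each pig's own change gives the same comparison without a model. At 6h the log2 ratio of ZFP36 to 0h was −2.04, −1.83, −0.50, 0.35 and 0.45 in the GS pigs and −0.30, 1.36, 1.01 and 2.96 in the PD pigs, and these overlapped. For ZFP36L1 it was −1.60, −1.40, −0.04, −0.07 and 0.02 in GS and 0.33, 0.36, 0.18 and 0.98 in PD, without overlap, as for 3.13% of all genes by rlog. For RC3H1 it was 0.62, 0.12, −0.04, 0.45 and 0.27 in GS and 0.78, 0.58, 1.57 and 1.39 in PD, where the lowest PD pig lay below the highest GS pig. The exact two-sided Wilcoxon test on rlog changes, which with 4 against 5 pigs cannot go below 0.0159, gave p = 0.0159 for ZFP36L1, p = 0.0317 for RC3H1 and p = 0.0635 for ZFP36. The values adjusted over all genes in this exact test were 0.508, 0.534 and 0.598. Thus 2 members were under an unadjusted exact p of 0.05 at 6h, both with higher changes in PD, beside 5.94% of all genes in either direction and 3.05% with higher changes in PD. Leaving out each pig in turn gave 1 or 2 such members, and RC3H1 then had an exact p of 0.0571 or 0.0714 in 7 of the 9 cases. At 12h no member was under it, beside 3.95% of all genes, and for none did the groups stay apart, as they did for 2.16% of all genes. Without PD pig 2 there were 3, ZC3H12C, RC3H1 and ELAVL1, each at an exact p of 0.0357, beside 16.6% of all genes under 0.05 in that setting. For ZFP36L1 the 2 lowest GS values were those of pigs 9 and 17.

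The Regnase genes had larger fitted changes in PD than in GS, without a difference that passed the test. The difference in log2 change between PD and GS was 0.54 (SE 0.63, adjusted p = 0.859) at 6h and 0.80 (SE 0.64, adjusted p = 0.925) at 12h for ZC3H12A. For ZC3H12C it was 0.57 (SE 0.52, adjusted p = 0.819) and 0.86 (SE 0.52, adjusted p = 0.899). ZFP36L2 had the lowest difference at 12h, −0.66 (SE 0.37, adjusted p = 0.868).

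The members called for a difference in level were all lower in PD, and they made up a share of the 10 that was close to or below that of all genes called in either direction at each time. At 0h, 4 of 10 members were called at an adjusted p under 0.05, all lower in PD, where 40.6% of the 16477 genes tested were called in either direction and 19.3% as lower in PD. KHSRP was 5.51-fold lower in PD, with a log2 difference of −2.46 (SE 0.32, adjusted p = 0.000127). ZFP36 was 3.59-fold lower with −1.84 (SE 0.41, adjusted p = 0.00364), N4BP1 2.94-fold lower with −1.56 (SE 0.27, adjusted p = 0.000904), and ZFP36L1 2.26-fold lower with −1.17 (SE 0.30, adjusted p = 0.00818). For KHSRP, ZFP36 and N4BP1 all PD libraries lay below all GS libraries, 3 of 10 members, where 34.2% of all genes did not overlap and 18.1% did so with PD lower. With the GS side held to pigs 9 and 17, whose libraries are nearer in depth to those of PD, the ZFP36 difference was −1.58 (adjusted p = 0.0792), that of ZFP36L1 −0.90 (adjusted p = 0.167) and that of KHSRP −1.98 (adjusted p = 0.0126). ZC3H12A had −0.92 (adjusted p = 0.0238) at 0h without PD pig 4, and RC3H1 −1.19 (adjusted p = 0.0283) without GS pig 55, where neither was called with all pigs.

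At 6h KHSRP was the 1 member called, 4.91-fold lower in PD with −2.30 (SE 0.41, adjusted p = 0.00268), beside 24.3% of all genes in either direction and 11.4% as lower. Its PD and GS libraries again did not overlap, as for 21.2% of all genes, 9.52% with PD lower. N4BP1 stood at −0.995 (SE 0.38, adjusted p = 0.0707) and was not called, but had −1.44 (adjusted p = 0.0179) without PD pig 4 and −1.11 (adjusted p = 0.0494) without GS pig 17. ZFP36, called at 0h, had a log2 difference of −0.41 (SE 0.57, adjusted p = 0.623) at 6h. Against GS pigs 9 and 17 alone this was 1.56 (adjusted p = 0.0847), and against pigs 44, 55 and 77 alone −0.98 (adjusted p = 0.0691).

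At 12h, 2 members were called, both lower in PD, beside 20.1% of all genes in either direction and 9.49% as lower. KHSRP was 4.90-fold lower with −2.29 (SE 0.41, adjusted p = 0.00391), and N4BP1 2.14-fold lower with −1.10 (SE 0.31, adjusted p = 0.0277), both without overlap, as were 21.4% of all genes, 11.2% with PD lower. ZFP36 had −1.83 (SE 0.63, adjusted p = 0.0605) and ZFP36L1 −1.34 (SE 0.47, adjusted p = 0.0623), neither called, though both passed without GS pig 9 or without GS pig 17, with adjusted p from 0.0288 to 0.0431. N4BP1 lost its 12h call without GS pig 44 or 55 or PD pig 3 or 4, with adjusted p from 0.0542 to 0.0669. Against GS pigs 9 and 17 alone no gene at all was called at 12h. The values in that fit were −1.55 (adjusted p = 0.167) for KHSRP and −0.88 (adjusted p = 0.326) for N4BP1. In the edgeR fits at each time with all pigs, ZC3H12A, ZC3H12C, ZFP36L2, RC3H1, ELAVL1 and HNRNPD were not called. A p above the threshold does not show equal levels. DESeq2 called 5 of the 10 members at 0h, where edgeR called 4, beside 40.6% of all genes in edgeR. These counts are near the share over all genes in edgeR and are not a result about the members.

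With the trend of each library on exon length and GC content removed, the KHSRP difference was −1.96 (adjusted p = 0.000392) at 0h, −1.79 (adjusted p = 0.00323) at 6h and −1.81 (adjusted p = 0.00505) at 12h. That of N4BP1 was −1.04 (adjusted p = 0.00427) at 0h and −0.69 (adjusted p = 0.0693) at 12h. Summed markers of other cells also differed between the groups at 0h, though within most lists single genes went both ways. The marker calls given here stand beside 40.6% of all genes called at 0h in either direction and 19.3% as lower in PD. Monocyte and macrophage markers (8 of 8 in the table) summed to 1417 to 1658 CPM in PD and 1899 to 3692 in GS, with 3 genes called lower and none higher. Endothelial markers (6 of 6) summed to 1202 to 1713 CPM in PD and 1907 to 2690 in GS, with 3 called lower and 1 higher. Fibroblast and smooth muscle markers (6 of 6) had 4 called lower and 1 higher, with a median log2 difference of −1.25, while their sums overlapped, at 973 to 2858 CPM in PD and 2178 to 3114 in GS. Alveolar type 2 markers (5 of 6) summed to 26022 to 77066 CPM in PD and 6524 to 9243 in GS, with 1 called higher and 1 lower and a median of 0.64. Red blood cell markers (2 of 3) summed to 51.3 to 236 CPM in PD and 0.355 to 10.3 in GS, with 1 called higher. Neutrophil markers (6 of 7) summed to 630 to 1255 CPM in PD and 156 to 402 in GS, but 2 were called higher and 1 lower, with a median of −0.42. Their part in the level differences was not tested.

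**Figure D4:**
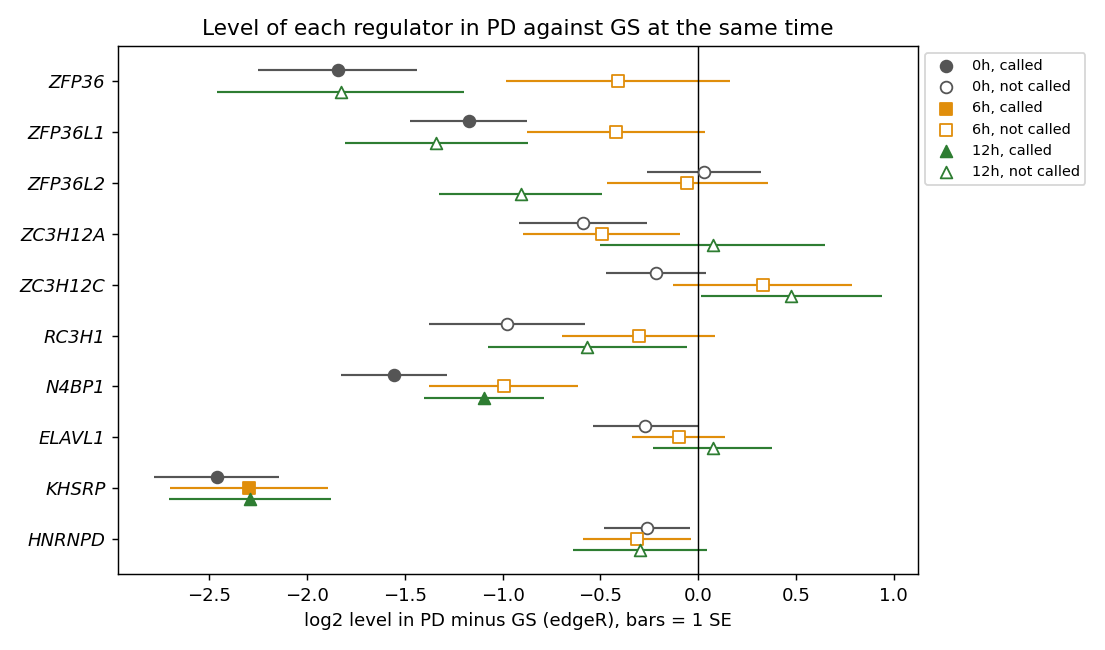
Fitted log2 difference in level between PD and GS for each member at 0h, 6h and 12h, with bars of 1 SE on either side and filled points for adjusted p under 0.05. KHSRP lies between −2.46 and −2.29 at all 3 times, and ZFP36 and ZFP36L1 are nearer to 0 at 6h than at 0h or 12h.

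Messengers known as targets of these proteins were called in both groups, most of them higher. The list held 31 cytokine and early response genes, of which 30 were in the table and 29 tested. In GS, 9 were higher and 2 lower at 6h, beside 11.1% of all genes called in either direction, and 9 higher and 2 lower at 12h, beside 15.7%. In PD, 4 were higher at 6h and 13 at 12h, with none lower, while the share over all genes went from 0.142% to 5.98%. At an unadjusted p under 0.05 there were 15 and 13 in GS at the earlier and later time, beside 41.2% and 48.5% of all genes, and 23 and 21 in PD, beside 9.41% and 24.5%. The median log2 fold change over the list was 0.53 and 0.56 in GS at 6h and 12h, and 1.99 and 1.56 in PD. Where these changes were compared between the groups, edgeR called 0 of the 29 at 6h and 0 at 12h, beside 0% of all genes. At an unadjusted p under 0.05 in the exact Wilcoxon test, 5 had higher changes in PD at 6h and 4 at 12h, with none lower. The shares over all genes with higher changes were 3.05% and 2.19%, and none passed after adjustment. In GS at 6h, IL6 (a cytokine of acute inflammation) rose by 2.23 (SE 0.47, adjusted p = 0.00436) and CSF3 (the granulocyte growth factor G-CSF) by 2.22 (SE 0.39, adjusted p = 0.00187), while FOS (an immediate early transcription factor) stood at −3.34 (SE 1.02, adjusted p = 0.0305) and IL12B (a subunit of IL-12) at −2.26 (SE 0.42, adjusted p = 0.00236). At 12h CSF3 and PTX3 (a soluble pattern recognition protein) led with 2.85 (SE 0.40, adjusted p = 0.000308) and 2.31 (SE 0.22, adjusted p = 4.5e-05), and FOS and IL12B were lowest with −3.46 (SE 1.03, adjusted p = 0.0206) and −2.12 (SE 0.41, adjusted p = 0.00200). In PD, CCL4 (a chemokine) and IL6 led at 6h with 3.94 (SE 0.51, adjusted p = 0.0176) and 3.77 (SE 0.46, adjusted p = 0.0176), and CSF3 and IL6 at 12h with 4.53 (SE 1.04, adjusted p = 0.0326) and 4.51 (SE 0.47, adjusted p = 0.00540). TNF, whose site is printed above and which is named for that reason, was called in all 4 comparisons, with log2 fold changes of 1.37 and 1.97 in GS and 3.20 and 2.71 in PD.

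The count of targets called depended on which pigs were used. In GS pigs 44, 55 and 77 alone, 18 were higher and 1 lower at 6h, beside 14.6% of all genes, and in pigs 9 and 17 alone 1 was higher and 1 lower, beside 5.05% of all genes. At 12h these counts were 17 and 1 in the deeper pigs and 2 and 2 in the shallower, beside 18.9% and 7.64% of all genes. In PD, none was called at 12h without pig 3 or without pig 5, and none at 6h without pig 3, 4 or 5. In these fits edgeR called 0% of all genes. Over all alternatives run, the targets called ranged from 0 to 16 in PD at 6h and from 0 to 19 at 12h. The share of all genes called also rose in some, to 2.75% in DESeq2 at 6h and to 24.4% without PD pig 2 at 12h.

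Of the machinery that the regulators call on, 19 deadenylases and adaptors were tested, and 2 were higher and none lower in GS at 6h, in GS at 12h and in PD at 12h. Over all genes 11.1%, 15.7% and 5.98% were called in these comparisons, and at an unadjusted p under 0.05 there were 10, 11 and 5 of the 19, beside 41.2%, 48.5% and 24.5% of all genes. The 2 were the same genes each time, BTG3, an adaptor of the CCR4-NOT deadenylase, with 1.92 (SE 0.17, adjusted p = 7.9e-05), 2.04 (SE 0.17, adjusted p = 3.7e-05) and 2.36 (SE 0.51, adjusted p = 0.0290), and NOCT (nocturnin, classed with the deadenylases by its fold), with 1.46 (SE 0.41, adjusted p = 0.0183), 1.48 (SE 0.41, adjusted p = 0.0123) and 2.57 (SE 0.50, adjusted p = 0.0218). At 6h in PD edgeR called 0 of 19, with 3 at an unadjusted p under 0.05 (9.41% of all genes) and 2 in DESeq2 (2.75% of all genes). Of 14 decapping and 5′ decay genes tested, edgeR called 0 in each of the 4 comparisons, as did DESeq2, with 6 and 6 at an unadjusted p under 0.05 in GS at the earlier and later time, and 1 and 2 in PD, where the shares over all genes were again 41.2%, 48.5%, 9.41% and 24.5%. At 12h in PD, leaving out pig 2 gave 4 calls among the 14, beside 24.4% of all genes. Of 16 exosome and 3′ decay genes tested, edgeR called 0 in each, with 7, 9, 0 and 4 at an unadjusted p under 0.05, beside the same shares, and DESeq2 called 2 in PD at 12h, beside 16.5% of all genes, and 0 in the others.

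Relatives of the 10 genes and other proteins that bind the same elements were tested for 25 genes in GS and 23 in PD. In GS, 1 of 25 was called at 6h, beside 11.1% of all genes, and 5 of 25 at 12h, beside 15.7%, and in PD 0 of 23 at 6h, beside 0.142%, and 3 of 23 at 12h, beside 5.98%. The 1 in GS at 6h was HNRNPAB (an hnRNP close to AUF1), which was higher, with 1.18 (SE 0.14, adjusted p = 0.000282). At 12h in GS, 4 were higher, led by HNRNPAB with 1.44 (SE 0.14, adjusted p = 5.9e-05) and HNRNPDL with 1.14 (SE 0.12, adjusted p = 8.1e-05), and TIA1, a stress granule protein that holds back translation of TNF, was the 1 lower, with −1.10 (SE 0.10, adjusted p = 4.5e-05). In PD edgeR called 0 at 6h, with 1 at an unadjusted p under 0.05 (9.41% of all genes) and 0 in DESeq2 (2.75% of all genes). At 12h HNRNPAB and HNRNPA1 were higher in PD, with 1.78 (SE 0.40, adjusted p = 0.0310) and 1.23 (SE 0.30, adjusted p = 0.0395), and ZC3H12D, a further Regnase known from lymphocytes, was lower with −1.80 (SE 0.39, adjusted p = 0.0292). Summed lymphocyte markers (7 of 8 in the table, none at 0) were also lower at 12h than at 0h in all 4 PD pigs, at 113 to 151 CPM against 171 to 296, with 2 of the 7 called lower and a median log2 fold change of −0.58, and their part in the ZC3H12D change was not tested.

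The last list held kinases, phosphatases and other proteins that switch these regulators on and off, 18 of them tested. In GS, 4 were higher and 1 lower at both times, beside 11.1% and 15.7% of all genes. TNFAIP3 (A20, which restrains NF-κB signalling) had 1.50 (SE 0.45, adjusted p = 0.0251) at 6h and 1.97 (SE 0.46, adjusted p = 0.00564) at 12h, and MAP2K3 (a kinase upstream of p38) 1.40 (SE 0.25, adjusted p = 0.00202) and 1.48 (SE 0.25, adjusted p = 0.000901). MAP2K6, the other kinase of that step, was lower, with −1.29 (SE 0.23, adjusted p = 0.00209) and −1.43 (SE 0.23, adjusted p = 0.000720). In PD, TNFAIP3 was the 1 called at 6h, beside 0.142% of all genes, with 3.35 (SE 0.47, adjusted p = 0.0222). That call was lost without PD pig 3, 4 or 5, where edgeR called 0% of all genes at 6h. At 12h TNFAIP3 and TNIP1, a partner of A20, were higher, with 3.04 (SE 0.48, adjusted p = 0.0161) and 2.55 (SE 0.48, adjusted p = 0.0209), beside 5.98% of all genes. The PD calls at 12h in the deadenylase, relatives and kinase lists were all lost without PD pig 3 or 5, where edgeR called 0% of all genes. Without PD pig 4 they numbered 1, 0 and 2, beside 2.55% of all genes, and without PD pig 2 they numbered 5, 7 and 5, beside 24.4%.

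Genes whose levels ran most like those of the called members were sought over the 27 libraries with each pig's mean subtracted, among the genes tested in the fit of all libraries. For ZC3H12A these were TICAM1 (an adaptor of Toll-like receptors) with a Pearson r of 0.959, HBEGF (a growth factor of the EGF family) with 0.947 and OSGIN1 (an oxidative stress response gene) with 0.942. For ZC3H12C they were SPRTN (a protease of DNA repair) with 0.962, ARRDC4 (an arrestin-like protein) with 0.961 and CAB39 (a partner of the kinase LKB1) with 0.960. These are descriptions across libraries that share pigs, times and depth.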

How the data were processed

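Total RNA of lung biopsies was used for stranded poly-A libraries, sequenced paired-end. Per the labels and the study's methods, the authors trimmed reads with cutadapt 1.15, aligned them with TopHat2 2.0.14 to Sscrofa11.1 and deposited raw counts per Ensembl gene. The submitters' processing notes also name bcl2fastq 2.2.18.12, featureCounts, Subread 1.6.0 and DESeq2 1.18.1. How strand and multi-mapping reads were treated is not given in the sources used here, so genes with close copies are uncertain. The deposited counts were used as they are, for 31908 genes and 27 libraries of 14650700 to 67522703 counts, and every pair of libraries differed beyond counting noise (chi-square at least 36.9 for each degree of freedom). Symbols came from the table for 16719 genes and from reference tables for 770 and 505 more.

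With R 4.3.3 and edgeR 4.0.16 (limma 3.58.1), the libraries of each group were filtered by filterByExpr, scaled by TMM and fitted with time and pig (the block). The tests were two-sided quasi-likelihood F tests (robust), with Benjamini-Hochberg adjustment over all genes tested (18594 in GS, 15545 in PD). The difference of changes was the interaction of group and time over all 27 libraries (17884 genes), and beside it the two-sided exact rank-sum test of Wilcoxon on changes in rlog (DESeq2 1.42.0). Levels were compared at each time without a block. Libraries of 1 pig deviated together in GS (mean r 0.526, range 0.342 to 0.740, against −0.119 between pigs) and little in PD (0.109, range −0.283 to 0.488, against −0.0322), and the pairing comes from the shared animal. CPM are TMM-scaled, and log2 CPM has a prior count of 2. With pig and time fitted, the biological coefficient of variation that remained was 0.259 for GS and 0.489 for PD. The fits were tested on simulated data.

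All 10 members are described, and from each list the 2 genes with the largest change in each direction among those called are named. The members and lists were chosen with earlier results of these data known. Other normalization, filters, tools, fits and subsets of libraries were tried as alternatives. Fits were made on counts only, and RefSeq supplied exon lengths, GC content (82.6% of genes tested) and 3′UTR sequences for all 10 members.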

Additional observations from a re-analysis of the deposited data

Results flagged for a closer look

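For the 10 members, 4 values lay far from the others of their group in log2 CPM. ZFP36L1 in GS at 0h was 8.83 in pig 17, with the nearest other pig at 9.70. HNRNPD in GS at 6h was 7.30 in pig 17, with the nearest at 8.05. KHSRP in PD at 6h was 4.71 in pig 2, with the nearest at 6.19, and HNRNPD in PD at 12h was 6.74 in pig 2, with the nearest at 7.92. Each was picked out because its gap to the nearest pig was a large share of the whole range of the group (Dixon's criterion), which chance alone meets in about 1 in 20 groups. With 10 members looked at in GS and PD at every time, a few such values can be met by chance. The PD pig 2 library at 12h is also 1 of the 2 that correlated least with the other libraries.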

How the results depend on the processing

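No change or difference that was called changed sign under any alternative run. Among values that were not called, the sign changed in 133 combinations of a value and an alternative. Examples are the ZFP36 level difference at 6h (−0.41, and 1.56 against GS pigs 9 and 17 alone) and ZFP36 in PD at 12h (−0.74 to 0.43 when each pig was left out). The counts that follow are of members called unless stated. Without a fold threshold the count rose from 2 to 5 in GS at 6h and from 2 to 8 at 12h, where 28.5% and 38.4% of all genes were called. In PD at 6h it was 0, and 1 without the replicate block or without the filter on low counts, and 2 in DESeq2, with the exon length and GC trend removed, with only the 2 times compared, with all 27 libraries in one fit, and without the PD pig 2 library at 12h, alternatives in which 0.39% to 2.75% of all genes were called. In PD at 12h it was 2, but 0 with only the 2 times compared, where 4 of all genes were called. There it was 3 in DESeq2, where 16.5% of all genes were called, and 5 without the PD pig 2 library at 12h, where 26.2% were. For levels at 0h it was 4 in edgeR, where 40.6% of all genes were called, but 5 in DESeq2, whose share over all genes is not given here. For levels at 6h it was 1, but 2 in DESeq2 (31.1% of all genes) and in one fit of all libraries (24%), and 3 against GS pigs 44, 55 and 77 alone (35.7%). For levels at 12h it was 2, but 4 in DESeq2 (29% of all genes) and in one fit of all libraries (31.4%), 5 against GS pigs 44, 55 and 77 alone (21%), and 0 against GS pigs 9 and 17 alone (0%). Leaving out each pig in turn gave 2 in GS at 6h, 2 to 3 in GS at 12h, 0 in PD at 6h and 0 to 6 in PD at 12h (6 without PD pig 2, where 24.4% of all genes were called, and 0 without PD pig 3 or 5, where 0% were). It gave 4 to 5 for levels at 0h, 1 to 2 at 6h and 1 to 4 at 12h. With all pigs, 40.6%, 24.3% and 20.1% of all genes were called for levels at these times. For the exact Wilcoxon test it gave 1 to 2 at 6h and 0 to 3 at 12h. With all pigs, 5.94% and 3.95% of all genes were under that threshold. The shares over all genes with each pig left out were not set beside the level and Wilcoxon counts, which are not a result about the members. The replicate block moved the count of all genes called from 2057 to 1123 in GS at 6h, from 2911 to 1896 in GS at 12h, from 22 to 100 in PD at 6h and from 930 to 1460 in PD at 12h when it was left out, where the count of members was 2, 2, 1 and 3. With the exon length and GC trend removed, PD had 213 genes called at 6h and 2575 at 12h. Without the PD pig 2 library at 12h these were 252 and 4161, and without the PD pig 4 library at 0h 26 and 457. The trend removal, the GS subsets and the omission of single PD libraries were chosen after seeing the data. The cause of these shifts was not tested. PD libraries were shallower than those of GS, and the part of depth in the number of calls was not tested.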
